A study of Rattus norvegicus with 24 samples.

Results

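The genes described here belong to the Akt and mTOR pathway, which links growth factor and nutrient signals to protein synthesis and cell growth. They are Akt1 and Akt2, Mtor, Rptor, Rictor, Rheb, Tsc1 and Tsc2, a list of 8 chosen by name, and 7 of them were matched to rows of the 17711 in the table, each to a single row. Rictor was not analysed here. Growth factor receptors activate PI3-kinase, whose lipid product brings the kinase Akt to the membrane. Akt phosphorylates Tsc2, which together with Tsc1 keeps the small GTPase Rheb inactive, and active Rheb switches on the kinase mTOR in the complex that holds Raptor, the product of Rptor. In neurons this pathway is known for its part in local protein synthesis and synaptic plasticity, and in hair follicles for its part in the growth phase of the hair cycle.

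The RNA came from male Sprague-Dawley rats that pressed a lever for intravenous infusions of methamphetamine (MA), an amphetamine-type psychostimulant, dissolved in saline at 0.05 mg/kg per infusion, or of saline alone (SA), in sessions of 2 h over 16 days. All rats had first been trained on the lever with food pellets, and those that earned enough of them went on to surgery. Striatum, the forebrain region that receives most dopamine input, and whisker follicles, the hair follicles of the snout, were taken at the end from 6 MA and 6 SA rats, which gives 24 libraries. The values are FPKM, sequenced fragments scaled for transcript length and for the number mapped in the library, and a library is named here by the index of 0 to 5 in its column, because nothing ties that index to a rat.

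The FPKM of a library summed to 361025 to 418892 in striatum of MA rats and 348717 to 371477 in striatum of SA rats, against 774567 to 1387580 and 1005810 to 1524570 in whisker follicles of MA and SA rats. Read counts were not at hand, so the counting error behind a value is unknown. The 9 markers of striatal neurons summed to 2320 to 5410 FPKM in striatum of MA rats and 2318 to 5736 in striatum of SA rats, against 3.10 to 8.63 and 5.67 to 27.6 in whisker follicles. The 11 matched markers of hair shaft and inner root sheath summed to 20.3 to 52.0 in striatum, against 42087.5 to 101127 in whisker follicles. Each tissue therefore carried its own markers. No marker of striatal neurons was at 0 in striatum and no hair shaft marker at 0 in whisker follicles of either treatment. A bulk library cannot tell fewer cells of a type from less RNA per cell, and this holds for every difference below.

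Among the 7 genes, Akt1 and Rheb were the most abundant and Tsc1 the least. In striatum, the mean FPKM of Akt1, the widely expressed Akt kinase, was 95.2 ± 12.6 in MA rats and 82.4 ± 8.91 in SA rats (SD, n = 6 libraries each). Rheb followed at 72.1 ± 5.01 in MA and 63.0 ± 7.17 in SA. Tsc2, the GTPase-activating subunit of the tuberous sclerosis complex, came next at 31.8 ± 6.03 in MA and 24.9 ± 1.82 in SA. Then came Akt2, the Akt kinase best known for insulin signaling, Mtor, Rptor and Tsc1, the subunit that stabilizes Tsc2, in the same order in both treatments. FPKM is per length, so these levels can be compared between genes. The libraries of neighbours in this order overlapped for Tsc2 and Akt2 and for Mtor and Rptor in both treatments, and for Akt1 and Rheb and for Akt2 and Mtor in SA rats. No Tsc1 value, at most 8.36, reached the lowest of Rptor, 9.09.

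In whisker follicles Rheb stood first, at 63.9 ± 2.26 FPKM in MA rats and 57.6 ± 12.6 in SA rats. Akt1 and Akt2 came next, and their ranges overlapped in both treatments. In SA rats the ranges of Akt1, 3.60 to 49.2, and Akt2, 2.75 to 48.8, also overlapped those of Rheb, Rptor, Tsc2 and Mtor. Rptor, Tsc2 and Mtor lay between means of 2.84 and 5.34, with Rptor above Tsc2 in MA and Tsc2 above Rptor in SA, within their spread. Tsc1 was lowest, at 0.576 ± 0.299 in MA and 0.397 ± 0.408 in SA, and whisker SA library 4 listed it at 0. The coefficient of variation of Akt2 was 34.9% in MA and 109% in SA, and that of Akt1 was 28.5% and 81.1%, against 13.3% at most for Akt1 and 23.5% at most for Akt2 in striatum.

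**Figure D1:**
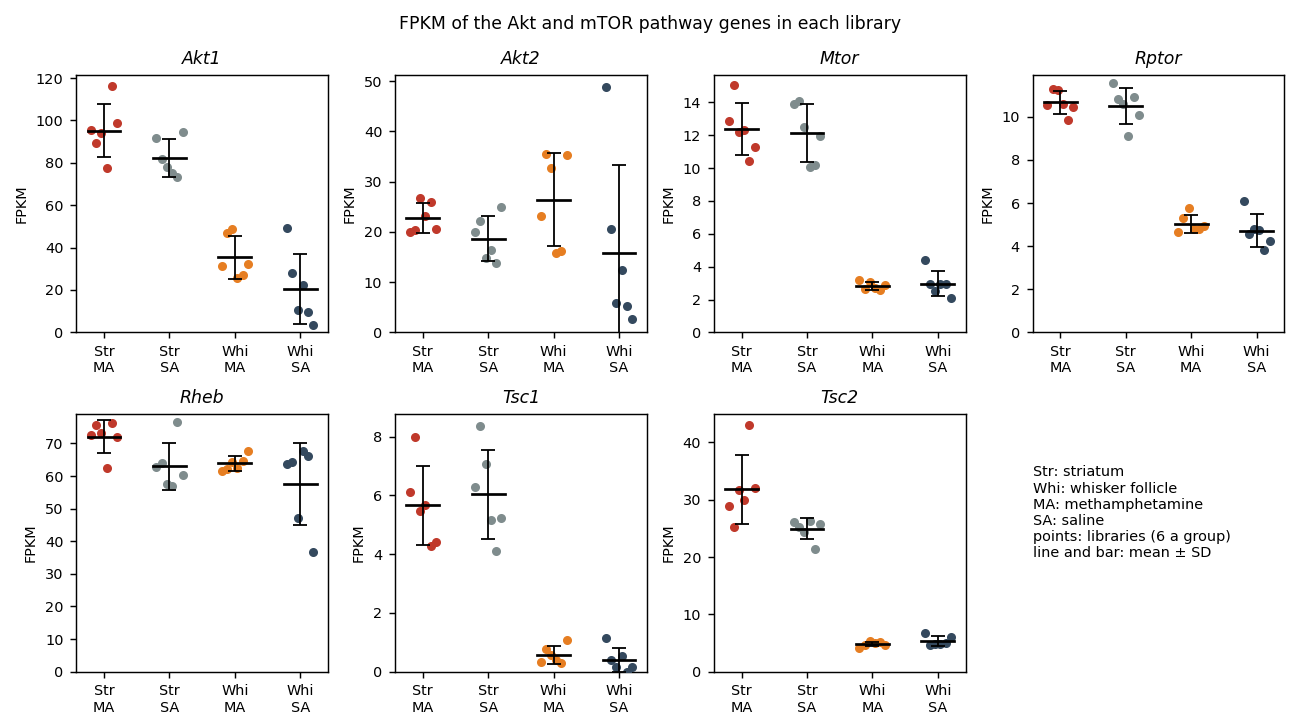
FPKM (vertical axis, linear) of the 7 genes in each of the 24 libraries, with 6 points for each treatment and tissue and lines for mean ± SD. Akt1, Mtor, Rptor, Tsc1 and Tsc2 sit higher in every striatum library than in every whisker follicle library, Rheb lies between 56.9 and 76.5 in all but 2 libraries, both from whisker follicles of SA rats, and Akt1 and Akt2 spread most in whisker follicles of SA rats.

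Promoter sequence is shown for the pairs of genes whose values moved together most closely, Akt1 with Akt2 in whisker follicles and Mtor with Tsc1 in striatum, as described further on. RefSeq promoter entries of build GRCr8 matched 6 of the 7 genes, all but Rptor. The stretches are the 250 bases before the annotated start, written from 5′ to 3′ on the gene's strand, at chr6:137552611-137552860 (minus strand) for Akt1, chr1:92021667-92021916 (plus) for Akt2, chr5:164167735-164167984 (plus) for Mtor and chr3:32367447-32367696 (plus) for Tsc1. This build is not the rn6 build named for the FPKM table. Capitals mark matches, on either strand, to the E-box CACGTG, the FOXO core GTAAACA, the GC box GGGCGG, the CAAT box element CCAAT, the cyclic AMP response element TGACGTCA or the TATA box element TATAAA.
Akt1: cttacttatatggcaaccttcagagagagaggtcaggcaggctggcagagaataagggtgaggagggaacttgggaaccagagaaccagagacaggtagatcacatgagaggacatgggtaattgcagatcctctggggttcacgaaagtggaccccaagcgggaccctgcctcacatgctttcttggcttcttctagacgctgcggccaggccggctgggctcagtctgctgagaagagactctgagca
Akt2: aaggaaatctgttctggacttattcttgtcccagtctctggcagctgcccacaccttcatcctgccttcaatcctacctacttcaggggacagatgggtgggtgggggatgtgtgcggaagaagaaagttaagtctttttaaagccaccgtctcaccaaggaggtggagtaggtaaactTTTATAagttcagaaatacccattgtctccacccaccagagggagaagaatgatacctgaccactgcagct
Mtor: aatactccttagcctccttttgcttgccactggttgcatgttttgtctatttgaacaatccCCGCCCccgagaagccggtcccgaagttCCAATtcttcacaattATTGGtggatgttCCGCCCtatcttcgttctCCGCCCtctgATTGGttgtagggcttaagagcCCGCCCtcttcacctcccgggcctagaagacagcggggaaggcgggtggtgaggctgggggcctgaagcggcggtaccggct
Tsc1: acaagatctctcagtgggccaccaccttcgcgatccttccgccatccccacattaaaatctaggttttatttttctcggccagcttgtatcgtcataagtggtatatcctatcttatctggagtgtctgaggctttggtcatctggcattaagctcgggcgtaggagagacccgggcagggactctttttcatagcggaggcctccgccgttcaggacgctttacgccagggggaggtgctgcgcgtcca
Mtor held 4 GC boxes and 3 CCAAT matches, none overlapping another, Akt2 held 1 TATAAA match that began 71 bases before the start, and Akt1 and Tsc1 held none of the 6 motifs. Neither pair shared a motif. Of the other matched genes, Rheb held 1 E-box and 1 GC box and Tsc2 held 1 GC box. Among 33469 promoter stretches of that length, 30.5% held a GC box, 34.0% CCAAT, 12.9% TATAAA, 5.59% the E-box, 3.21% the FOXO core and 1.59% the response element. A match describes the letters and is not a site of binding.

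The first comparison asked whether self-administered MA changed these genes in striatum, where the drug acts on dopamine terminals. A gene was called where limma on log2(FPKM + 1) gave an adjusted p below 0.05 and it differed by 1.5 times or more. None of the 7 genes was called, and of the 10607 genes tested 0.00943% were called higher and 0% lower. At an unadjusted p under 0.05, 2 of the 7 were higher in MA, Tsc2 and Rheb, and none lower, against 5.38% higher and 2.88% lower among all genes. The log2 fold change was above 0 for 6 of the 7 genes, against 50.5% of all genes. The median log2 fold change of the 7 was 0.20, against 0.00 for all genes tested.

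Tsc2 had the smallest p. Its FPKM was 28.9, 25.2, 31.7, 29.9, 43.1 and 32.1 in MA libraries 0 to 5, against 26.1, 25.2, 24.5, 26.4, 21.5 and 25.8 in SA libraries 0 to 5. Of the MA libraries, 5 exceeded the highest SA value, and MA library 1 did not. For Tsc2 limma gave a log2 fold change of 0.33 (standard error 0.11, 95% interval 0.09 to 0.56, unadjusted p = 0.00944, adjusted p = 0.577), with 6 of 6 MA libraries above the SA mean, and an exact permutation test of this gene alone gave p = 0.0108.

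Glial and vascular marker sums moved with Tsc2, and so did the FPKM sum of the library. MA library 4, which had the highest Tsc2 and Akt1, also had the highest sums of the 8 astrocyte, 8 microglia and 6 endothelium markers. The astrocyte sum was 2411 to 5716 FPKM in MA (median 3805) and 2586 to 3309 in SA (median 2843), the microglia sum 195 to 569 (median 381) in MA and 224 to 341 (median 268) in SA, and the endothelium sum 82.8 to 237 (median 135) in MA and 90.1 to 151 (median 121) in SA. The 8 oligodendrocyte markers summed to 5649 to 14914 in MA and 6186 to 15724 in SA. No marker of these lists was at 0 in striatum of either treatment. Over the 12 striatum libraries, Pearson r with Tsc2 was 0.92 for the FPKM sum, 0.91 for astrocyte and 0.87 for microglia markers. It was 0.81 for endothelium and 0.44 for oligodendrocyte markers. MA library 4 also had the highest FPKM sum of the striatum libraries, 418892. The part of these cells or of the FPKM sum in the Tsc2 values was not tested. Erythrocyte markers summed to 631 to 5657 FPKM in MA and 354 to 902 in SA, and without MA libraries 3 and 4, which had the most, limma gave Tsc2 a log2 fold change of 0.23 (unadjusted p = 0.0230).

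Rheb, the direct activator of the mTOR kinase, had 62.5 to 76.4 FPKM in MA (median 72.9) and 56.9 to 76.5 in SA (median 61.6). Apart from MA library 3 and SA library 4, each MA value lay above each SA value. The log2 fold change was 0.20 (standard error 0.08, unadjusted p = 0.0322, adjusted p = 0.593 by limma, exact permutation p = 0.0476). Akt1 had 77.3 to 116 in MA (median 94.7) and 73.2 to 94.8 in SA (median 79.9), with 3 MA libraries above the SA range. Its log2 fold change of 0.20 and that of Akt2, 0.29, had unadjusted p = 0.0620 and 0.0559. Akt2 itself spanned 19.9 to 26.7 in MA and 13.9 to 24.9 in SA, so the groups overlapped.

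The kinase and its partners showed less. Mtor, the kinase itself, had 10.5 to 15.1 FPKM in MA (median 12.3) and 10.1 to 14.1 in SA (median 12.2), with a log2 fold change of 0.03 (95% interval -0.19 to 0.25). Rptor, the substrate-binding subunit of its first complex, had 9.87 to 11.3 in MA and 9.09 to 11.6 in SA, a log2 fold change of 0.02 (95% interval -0.12 to 0.17). Tsc1 had 4.29 to 7.98 in MA and 4.11 to 8.36 in SA, at -0.07 (95% interval -0.42 to 0.27). The groups overlapped almost fully for these 3 genes, and the intervals leave room for changes within those bounds.

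The second comparison asked the same in whisker follicles, the accessible tissue that the study set beside the brain. The means of Akt1 and Akt2 were higher in MA rats than in SA rats, by 1.72 and 1.66 times, but no MA library of either gene left the range of the SA libraries. Akt1 had 31.4, 47.0, 48.8, 25.6, 26.9 and 32.4 FPKM in MA libraries 0 to 5, against 49.2, 27.9, 10.4, 22.4, 9.64 and 3.60 in SA libraries 0 to 5. Akt2 had 23.2, 35.4, 32.6, 15.8, 16.2 and 35.3 in MA, against 48.8, 20.5, 5.75, 12.4, 5.19 and 2.75 in SA. SA library 0 held the highest value of both genes, and SA libraries 2, 4 and 5 the 3 lowest.

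By limma, the log2 fold change of Akt1 was 1.11 (standard error 0.46, 95% interval 0.11 to 2.11, unadjusted p = 0.0328, adjusted p = 0.465) and that of Akt2 was 1.19 (standard error 0.53, 95% interval 0.05 to 2.32, unadjusted p = 0.0419, adjusted p = 0.465). The exact permutation test gave p = 0.0628 and 0.0844. Of the 6 genes tested in whisker follicles 0 were called, and of all 9138 genes 0% were called in either direction by limma, with 953 at an unadjusted p under 0.05. At that p, 2 of the 6 genes were higher in MA and 0 lower, against 5.25% of all genes higher and 5.18% lower. Their median was 0.13, against -0.01 for all genes.

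A single library decided these calls. Without SA library 0, Akt1 had a log2 fold change of 1.43 (adjusted p = 0.0270 by limma) and Akt2 of 1.61 (adjusted p = 0.0223), so both passed, together with 1219 of 9059 genes, 7.41% higher and 6.05% lower. With libraries weighted by their own spread, the values were 1.33 (adjusted p = 0.0161) and 1.56 (adjusted p = 0.0136), and 7.57% of genes were called higher and 5.12% lower. A call on Akt1 and Akt2 thus went with calls on many other genes.

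Other library measures moved with Akt1 and Akt2 in whisker follicles. The 5 adipocyte markers summed to 2959 to 10283 FPKM in MA (median 6282) and 2871 to 16622 in SA (median 12618), nearly all of it Fabp4, a fatty acid carrier, while Adipoq and Plin1, defining adipocyte genes, were at 0 in both groups. SA library 0 had the lowest sum, and the other 5 SA libraries, at 11020.4 to 16621.9, lay above every MA library. The 7 markers of hair matrix and papilla summed to 222 to 371 in MA (median 306) and 108 to 380 in SA (median 223), highest in SA library 0 and lowest in SA library 5, with Alx4 at 0 in both groups. SA library 5 also had the highest sum of striatal neuron markers among whisker libraries, 27.6. Over the 12 whisker libraries, Pearson r with Akt1 and Akt2 was -0.68 and -0.66 for the FPKM sum. For adipocyte markers it was -0.82 and -0.87, and for hair matrix and papilla markers 0.71 and 0.74. Basal and outer root sheath markers had -0.60 and -0.71, oligodendrocyte markers -0.72 and -0.58, and general neuron markers -0.16 and 0.04. The part of these measures in the Akt1 and Akt2 values was not tested.

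Of the remaining genes in whisker follicles, Rheb had 61.5 to 67.8 FPKM in MA (median 63.5) and 36.8 to 67.6 in SA (median 64.0). SA libraries 2 and 5, with 47.2 and 36.8, lay below all others, and the log2 fold change was 0.18 (95% interval -0.13 to 0.49). Rptor was at 0.09 (95% interval -0.14 to 0.32), Mtor at -0.03 (-0.32 to 0.26) and Tsc2 at -0.11 (-0.35 to 0.12), each with overlapping groups. Tsc1 had a mean FPKM under 1 and was not tested there, with 0.305 to 1.06 in MA and 0 to 1.14 in SA.

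The third comparison set the tissues side by side. In MA rats, 5 of the 7 genes were called higher in striatum than in whisker follicles, Akt1, Mtor, Rptor, Tsc1 and Tsc2, against 41.3% of 10985 genes called higher and 31.1% lower. In SA rats these 5 were called higher too, against 42.7% higher and 32% lower. In both treatments each striatum library lay above each whisker library for these 5 genes, against 41.1% of all genes in MA and 38.5% in SA, and the exact permutation p was 0.00216, the smallest that 6 libraries against 6 allow. The median of the 7 genes was 1.44 in MA and 1.73 in SA, against 0.22 in MA and 0.24 in SA for all genes tested.

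Both subunits of the tuberous sclerosis complex were higher in striatum. Tsc2 had 25.2 to 43.1 FPKM in striatum (median 30.8) and 4.22 to 5.40 in whisker follicles (median 4.84) of MA rats. In SA rats it had 21.5 to 26.4 FPKM in striatum (median 25.5) and 4.66 to 6.77 in whisker follicles (median 4.89). The log2 fold change was 2.48 in MA (standard error 0.11, adjusted p = 6.99e-17 by limma) and 2.04 in SA (standard error 0.11, adjusted p = 3.85e-15). Tsc1 had 4.11 to 8.36 in striatum and 0 to 1.14 in whisker follicles of SA rats, and its log2 fold change was 2.08 in MA and 2.35 in SA (standard error 0.18 each).

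For Mtor, the striatum of SA rats had 10.1 to 14.1 FPKM and the whisker follicles 2.07 to 4.42. The log2 fold change was 1.80 in MA and 1.73 in SA (standard error 0.12 each). Rptor had 9.09 to 11.6 in striatum and 3.82 to 6.07 in whisker follicles of SA rats, with 0.95 in MA and 1.02 in SA (standard error 0.09 each). Akt1 had 73.2 to 94.8 in striatum and 3.60 to 49.2 in whisker follicles of SA rats, with 1.44 in MA and 2.34 in SA (standard error 0.35 each). Relative to the median shift of all genes in SA, these log2 fold changes were 2.11 for Tsc1, 2.10 for Akt1, 1.80 for Tsc2, 1.49 for Mtor and 0.78 for Rptor. The pseudocount of 1 makes the change of a low gene such as Tsc1 too small, so these sizes do not order the genes. The ratio of mean FPKM in SA was 15.2 for Tsc1, 4.67 for Tsc2, 4.08 for Mtor, 4.01 for Akt1 and 2.23 for Rptor. In MA it was 9.82 for Tsc1 and 6.58 for Tsc2.

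Akt2 and Rheb were not called on the deposited scale with all libraries weighted equally. Akt2 spanned 13.9 to 24.9 FPKM in striatum and 2.75 to 48.8 in whisker follicles of SA rats, and its log2 fold change was -0.14 (95% interval -0.97 to 0.69) in MA and 0.75 (95% interval -0.08 to 1.58, adjusted p = 0.0845 by limma) in SA. Without whisker SA library 0 the SA value was 1.18 (adjusted p = 0.00123) and without whisker SA library 1 it was 0.93 (adjusted p = 0.0396), and with weighted libraries it was 1.28 (adjusted p = 7.49e-05), each of which made the call. Rheb was at 0.17 in MA (95% interval -0.07 to 0.41) and 0.15 in SA (95% interval -0.09 to 0.39). In MA rats 5 of 6 striatum libraries still lay above every whisker library for Rheb (exact permutation p = 0.0108), with 62.5 to 76.4 in striatum against 61.5 to 67.8 in whisker follicles.

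Scaling changed what could be said of Rheb and Akt2. With libraries scaled to a common median its log2 fold change was -0.26 in MA and -0.31 in SA (adjusted p = 0.0192 by limma), with quantile normalization 0.53 in MA and 0.60 in SA, and with a common sum (TPM) 1.67 in MA and 1.91 in SA, so neither its direction nor a call held across scalings. Akt2 was called higher in striatum with a common sum, at 1.33 in MA (adjusted p = 0.00775) and 2.43 in SA (adjusted p = 1.68e-05), and was not called with a common median (-0.56 in MA, 0.33 in SA) or quantile normalization (-0.16 in MA, 0.48 in SA). Rptor kept its direction but lay under the fold threshold with quantile normalization (0.51 in MA, 0.50 in SA) and, in MA, with a common median (0.57). Akt1, Mtor, Tsc1 and Tsc2 were called higher in striatum of MA and SA rats under these 3 scalings. The same scalings moved the counts of all genes in SA rats, with 4691 called higher and 3518 lower as deposited, 3777 and 4115 with quantile normalization, 3869 and 4498 with a common median, and 8898 and 1331 with TPM. The median of all genes moved with them, to -0.10, -0.15 and 1.82 in SA.

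**Figure D2:**
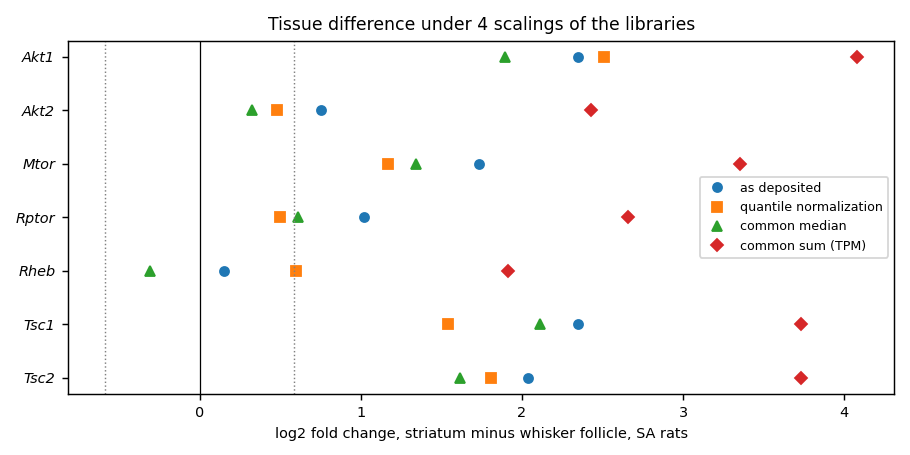
Log2 fold change of striatum minus whisker follicle in SA rats (horizontal axis) for each gene under 4 scalings, with dotted lines at a fold of 1.5 in either direction. Rheb lies at -0.31, 0.15, 0.60 and 1.91 depending on the scaling, while Akt1, Mtor, Tsc1 and Tsc2 stay above 1.

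A ratio of a pair of genes within a library does not change when the library is multiplied by a constant, as with a common median or common sum. Quantile normalization can change it, and the ratios here are of deposited values. Akt1 relative to Akt2 was 3.35 to 4.82 in striatum and 0.917 to 1.66 in whisker follicles of MA rats, and 3.68 to 5.28 in striatum and 1.01 to 1.86 in whisker follicles of SA rats. Akt1 was the higher of the pair in every library but whisker MA library 5, where the ratio was 0.917. The ranges of the tissues did not overlap, and the log2 difference was 1.61 in MA and 1.59 in SA (exact permutation p = 0.00216, adjusted p = 0.00433 over 16 ratio tests). Tsc2 relative to Rheb differed by 2.53 in MA and 2.08 in SA on the log2 scale, Mtor relative to Rheb by 1.95 and 1.90, and Mtor relative to Rptor by 1.03 and 0.88, each higher in striatum with the same p. In FPKM, the transcript of the inhibitor Tsc2 was thus 0.281 to 0.564 of that of its target Rheb in striatum and 0.0677 to 0.165 in whisker follicles. The proteins of these genes were not examined here. Between MA and SA, none of the 8 ratio tests passed, the smallest being Mtor relative to Rheb in whisker follicles (log2 difference -0.22, exact permutation p = 0.0887, adjusted p = 0.158).

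**Figure D3:**
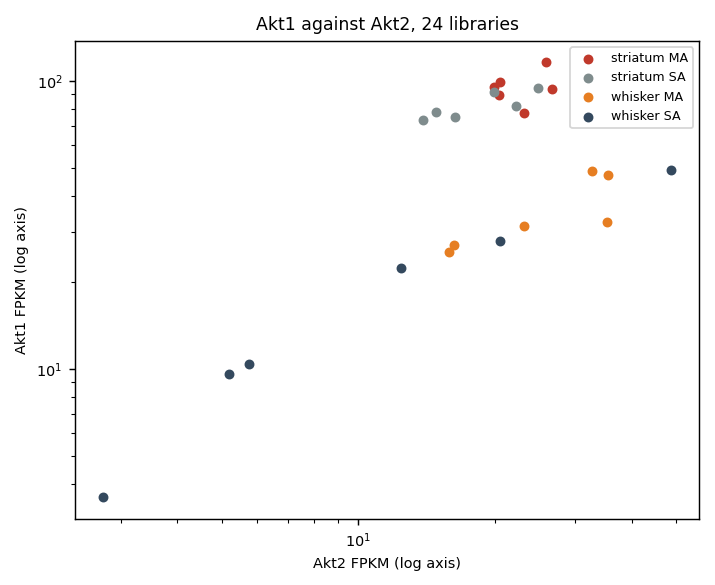
Akt1 FPKM (vertical) against Akt2 FPKM (horizontal), both on log axes, with a point for each of the 24 libraries. The striatum libraries form a group at 73.2 to 116 Akt1, and the whisker libraries lie along a line on which the SA libraries reach from 3.60 to 49.2 Akt1.

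Whether MA acted differently in striatum than in whisker follicles was asked with an interaction term in the fit of 24 libraries. None of the 7 genes was called, against 0.0091% of 10985 genes higher and 0% lower. Tsc2 had 0.44 (standard error 0.15, unadjusted p = 0.00766, adjusted p = 0.426 by limma), from 0.33 in striatum and -0.11 in whisker follicles, and was the one gene of the 7 at an unadjusted p under 0.05, with 6.98% of all genes at that p higher and 4.38% lower. By limma Akt1 was at -0.91 (unadjusted p = 0.0803) and Akt2 at -0.90 (unadjusted p = 0.129). For both, the estimated difference of MA minus SA was smaller in striatum than in whisker follicles. Without whisker SA library 0 these were -1.23 (adjusted p = 0.0469) and -1.32 (adjusted p = 0.0421), when 6.04% of genes were called higher and 5.24% lower. With weighted libraries they were -1.19 (adjusted p = 0.00952) and -1.28 (adjusted p = 0.0146) by limma, with 5.8% of genes called higher and 6.85% lower. The other 4 genes lay between -0.27 and 0.06.

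The genes also varied together between libraries, and 42 pairs were examined, 21 in each tissue. The pairs described here are only some of those with an adjusted permutation p under 0.05 for r. In whisker follicles Akt2 with Rptor (r = 0.79) and Rptor with Tsc1 (r = 0.80) also passed, at an adjusted permutation p of 0.018 each. No pair with Tsc2 did there, with an adjusted p of 0.42 or more. In whisker follicles Akt1 and Akt2 had Pearson r = 0.97 and Spearman rho = 0.98 over 12 libraries (permutation p = 1e-05 for both, the smallest that 100000 resamples give, adjusted p = 0.00042 for r). Without the 2 libraries farthest from the Akt1 median r was 0.95, and it was 0.82 in MA and 0.97 in SA. In striatum Mtor and Tsc1 had r = 0.88 and rho = 0.93 (permutation p = 0.00026 and 4e-05, adjusted p = 0.0055 for r), 0.90 without the 2 farthest libraries, 0.99 in MA and 0.84 in SA. Neuron and oligodendrocyte markers moved with this pair. MA library 1 and SA library 1 had the highest Mtor and Tsc1 of their groups, at 15.1 and 7.98 FPKM in MA and 14.1 and 8.36 in SA. The same libraries had the highest sum of 5 general neuron markers, 904 in MA and 931 in SA, and the lowest oligodendrocyte sum of their groups. MA library 4, with the lowest Mtor and Tsc1 in MA, had the lowest general neuron sum, 478, and the highest oligodendrocyte sum of the MA libraries. In SA rats the low end was mixed for the general neuron and oligodendrocyte lists. SA library 3, with the lowest Mtor in SA, 10.1, had the lowest general neuron sum there, 573, and the highest oligodendrocyte sum, 15724. SA library 4 had the lowest Tsc1 in SA, 4.11, but a general neuron sum of 709, above the SA median of 670. Its oligodendrocyte sum of 8558 lay between the SA median of 7968 and the highest. The striatal neuron markers, by contrast, were lowest in SA library 4, at 2318, and next in SA library 3, at 3018. In MA rats they were lowest in library 5, at 2320, with library 4 at 3806. Over the 12 striatum libraries their r was 0.80 with Mtor and 0.76 with Tsc1, against 0.77 and 0.69 for general neuron markers. The part of these cells in the relation was not tested. Akt2 with Tsc1 in whisker follicles had r = 0.86 and rho = 0.85 (permutation p = 0.00053 and 0.00085, adjusted p = 0.0074 for r), 0.84 without the 2 farthest. Tsc1 in those libraries was only 0.305 to 1.06 FPKM in MA and 0 to 1.14 in SA, low values with an unknown counting error. Akt1 with Tsc2 in striatum had r = 0.78 and rho = 0.65 (permutation p = 0.0029 and 0.026, adjusted p = 0.02 for r), but 0.43 without the 2 farthest libraries, so it rested on those.

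Over all 24 libraries with the group means removed, the 5 genes most like Akt1 among 10985 were Gas2l1, Rhoa, Actl6a, Tspan14 and Mbtps1, with r of 0.96 to 0.97. In whisker libraries alone their r with Akt1 was 0.98 to 0.99, and in striatum it was 0.18 to 0.79, so the likeness was seen in whisker follicles. Akt2 was 25th in that order (r = 0.94). Those most like Mtor were Gnb5, Dip2c, Scrn3, Btbd10 and Wscd2, with r of 0.88 to 0.90 over the 24 libraries, 0.83 to 0.92 in striatum and 0.78 to 0.82 in whisker follicles. Tsc1 was the nearest of the 7 genes to Mtor, at rank 438 (r = 0.74). These r are descriptions, since libraries share their scaling.

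A wider list of 103 genes of the pathway, from receptors to targets, gives the setting, and 92 of them were matched to a row, 1 through an older symbol. In striatum, 0 of the 89 tested were called between MA and SA. At an unadjusted p under 0.05, 7 of the 89 were higher and 2 lower, beside 5.38% higher and 2.88% lower among all genes, and their median log2 fold change was 0.01. The smallest p belonged to Irs2, the adaptor that couples the insulin receptor to PI3-kinase, with 9.60 to 20.9 FPKM in MA (median 12.1) and 5.97 to 10.2 in SA (median 7.35), a log2 fold change of 0.66 (standard error 0.16, unadjusted p = 0.00135, adjusted p = 0.577 by limma). Ddit4, whose product acts through the tuberous sclerosis complex to restrain mTOR, had 0.65 by limma (unadjusted p = 0.00675, adjusted p = 0.577) and Eif4ebp1, the translation repressor that mTOR inactivates, 0.53 (unadjusted p = 0.0122), with overlapping groups for both. Sgk1, a kinase related to Akt, had 0.55, Eef2, the elongation factor, 0.25, Eif4ebp2 0.27 and Lamtor5, a subunit of the lysosomal Ragulator scaffold, 0.20. Flcn, which acts on Rag GTPases, had -0.15 and its partner Fnip1 -0.30. The adjusted p of these 9 genes was 0.577 to 0.603.

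In whisker follicles, 0 of the 77 genes tested were called, with 6 of the 77 higher and 2 lower at an unadjusted p under 0.05, beside 5.25% higher and 5.18% lower among all genes, and a median of 0.06. Ddit4 had 81.5 to 153 FPKM in MA (median 96.0) and 55.4 to 79.0 in SA (median 62.1), so the groups did not overlap, as held for 0.197% of all genes in that direction. Its log2 fold change was 0.62 (standard error 0.15, unadjusted p = 0.00104, adjusted p = 0.465 by limma), and the study singled this gene out in these same libraries. Eef2k, the kinase that inhibits elongation factor Eef2, had 16.6 to 21.7 in MA and 14.1 to 16.2 in SA, also without overlap, at 0.34 by limma (unadjusted p = 0.00363). Trib3, a pseudokinase reported to bind Akt, had 3.22 to 4.73 in MA and 1.53 to 3.55 in SA, at 0.59 by limma (unadjusted p = 0.00248), and in striatum it was at 0.178 or less. Pdcd4 had 1.02, Tbc1d7, a further subunit of the tuberous sclerosis complex, 0.62, Pik3r2 0.25, Stk11 -0.21 and Rps6ka1 -0.38, each with an adjusted p of 0.465. None of the 88 genes tested was called in the interaction, where Trib3 had the smallest p (-0.66, unadjusted p = 0.000887, adjusted p = 0.355 by limma).

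**Figure D4:**
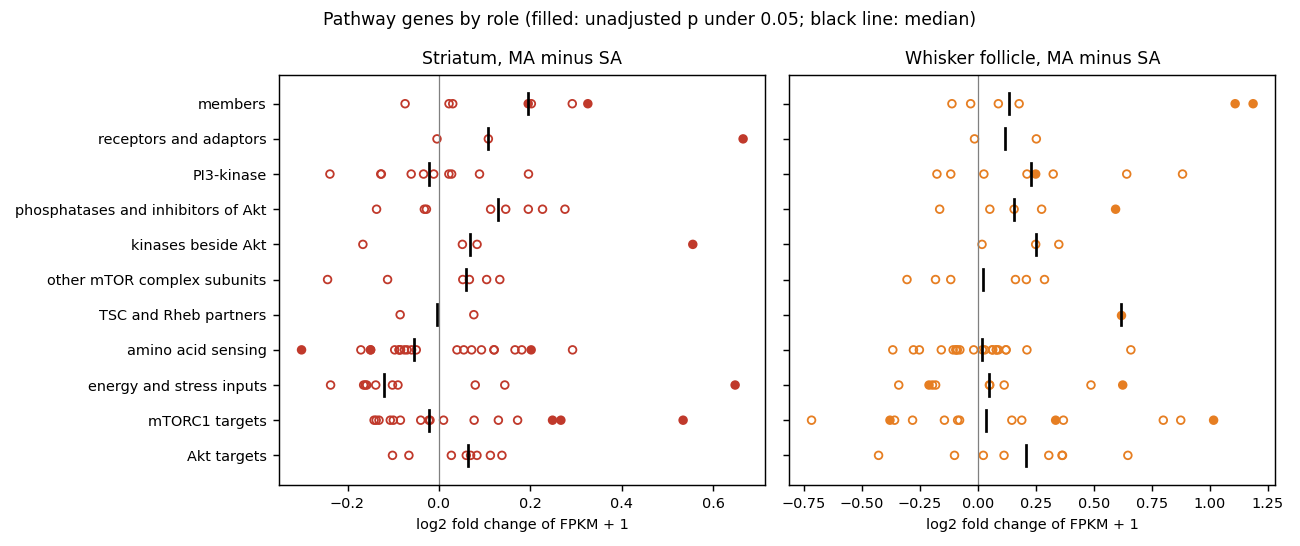
Log2 fold change of FPKM + 1, MA minus SA (horizontal axes), for the genes of each role, striatum on the left and whisker follicle on the right, with filled points for an unadjusted p under 0.05 and a black line at the median of each role. The row of members is the 7 genes themselves, with Tsc2 and Rheb filled in striatum and Akt1 and Akt2 in whisker follicles.

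Between tissues, 34 of the 88 pathway genes tested were called higher in striatum and 22 lower in MA rats, and 35 higher and 21 lower in SA rats, beside the shares of all genes given above. These counts and the values below are on the deposited scale and were not recomputed under the other scalings, which moved the split of all genes. The counts by role are a description, since no difference between roles was tested. Among PI3-kinase genes 7 of 10 were higher and 0 lower in SA rats, led by the catalytic subunit Pik3cd, with 8.08 to 21.8 FPKM in striatum and 0.290 to 0.916 in whisker follicles, at a log2 fold change of 3.38 (adjusted p = 9.01e-13 by limma). Among phosphatases and inhibitors of Akt, 6 of 8 were higher and 1 lower. They included Ppp2r2b, a regulatory subunit of protein phosphatase PP2A, with 38.3 to 53.7 in striatum and 0.273 to 1.32 in whisker follicles (4.73, adjusted p = 2.27e-20), and Phlpp1, which dephosphorylates Akt, at 2.65. Of the other mTOR complex subunits, 4 of 6 were higher and 1 lower, the lower at -0.87. The higher ones included Mlst8, found in both complexes, at 0.92 and Mapkap1, found in the second, at 1.30.

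Genes downstream of mTOR and in amino acid sensing were called in both directions. Of 16 tested under the heading of mTORC1 targets, which also takes in Eif4e, Eef2 and Rps6ka1, 4 were higher and 8 lower in striatum of SA rats. Grb10, an adaptor that dampens insulin receptor signaling, had 8.54 to 19.1 FPKM in striatum and 0.0278 to 0.142 in whisker follicles (3.49), whereas Eif4e, the cap-binding factor, had 23.9 to 29.4 and 81.6 to 125 (-1.87), and Eif4ebp1, its repressor, was at -3.06. Of 22 amino acid sensing genes, 4 were higher and 6 lower, with Rragd, a Rag GTPase, at 2.68, Sec13, of the complex that opposes amino acid withdrawal signals, at -1.48, and Castor1, the arginine sensor, at -3.99. Castor1 had 1.53 to 3.25 in striatum and 40.1 to 65.5 in whisker follicles, and it was matched through its older symbol. Rps6, a target of the S6 kinases, stood on 2 rows, so its value is uncertain and is not given, though the count above did not leave it out.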

How the data were processed

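RNA-seq libraries of striatum and whisker follicles from 6 MA and 6 SA rats were analysed, 24 in all. The authors deposited a single table of FPKM values, with a column per library, which was taken without further scaling. Cutadapt, TopHat2 and Cufflinks are named in their paper, whereas bcl2fastq, STAR 2.6.0c, Cufflinks 2.2.1 and build rn6 are listed in the submitters' processing notes. Which annotation and which scaling between libraries were used is not given in the sources used here. FPKM carries no read counts, so depth and counting error are unknown, and precision comes from the spread over 6 libraries. Column names gave tissue and treatment. The labels describe the samples as biological replicates. Both tissues come from the same rats, but the column index was not tied to the rat numbers, so libraries were not paired.

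Differences were fitted on log2(FPKM + 1), a pseudocount of 1, with limma 3.58.1 (R 4.3.3) and its moderated statistics with a trend on mean level, for genes whose FPKM averaged 1 or more. On this scale the change of a low gene comes out too small. Treatment was compared in the 12 libraries of each tissue. Tissue contrasts and the interaction came from a fit of 4 group means to the 24 libraries, so they share libraries with the treatment contrasts and with each other. Calls needed a Benjamini-Hochberg adjusted p below 0.05 over the genes tested, and a difference of 1.5 times or more. Cuffdiff, used in the study, needs reads and was not run. Single genes and ratios were compared by exact permutation tests over 924 assignments, with no adjustment over genes. All tests were two-sided, and the fits were tested on simulated data. Python 3.11.15 with scipy 1.17.1 served for ratios, correlations and promoters.

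Other settings tried were pseudocounts of 0.1 and 0.5, no filter, a filter at 5 FPKM, quantile normalization, scaling to a common median or a common sum (TPM), no trend, weighted libraries, calls by adjusted p alone, tissue contrasts from the libraries of 1 treatment, and each library left out. Ratios, tests of correlation and the fit without striatum MA libraries 3 and 4 were chosen after seeing the data. Members and gene lists were chosen with earlier results of these data known. Named genes were all members, up to 4 genes per role with the smallest p in a comparison, and the 5 genes most like Mtor and Akt1. A gene of the lists is left out by name and not reported here. Any other gene named was chosen after its values were seen.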

Additional observations from a re-analysis of the deposited data

Results flagged for a closer look

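Both results here concern Rheb in striatum, where a single library stood far from the other 5 of its group in FPKM. In MA rats, library 3 had a Rheb value of 62.5, below the other 5 at 72.0 to 76.4. In SA rats, library 4 had 76.5, above the other 5 at 56.9 to 63.9. In each case the gap to the nearest library, as a share of the range of the group, exceeded the 95% critical value of Dixon's test. In all, 28 groups of 6 libraries were examined in this way, and chance gives such a gap in about 1 group in 20.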

How the results depend on the processing

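The tissue calls of Akt1, Mtor, Tsc1 and Tsc2 kept their direction and call under each alternative run in which the gene was tested. Tsc1 was not tested with a mean FPKM of at least 5. Counts of genes called changed most. Between MA and SA in striatum, 1 gene was called, but 0 with a mean FPKM of at least 5, with a common sum or without MA libraries 3 and 4, and 0 to 4 without a single library (4 without MA library 5). In whisker follicles 0 became 1160 with weighted libraries, with 2 of the genes described here, and ranged over 0 to 1219 without a single library (1219 without SA library 0), with 0 to 2 of them. For the interaction, 1 became 2 with a pseudocount of 0.1, 3 with no filter, 0 with a mean FPKM of at least 5 and 1389 with weighted libraries, with 2 of the genes, and ranged over 1 to 1240 without a single library (1240 without whisker SA library 0, 6 without striatum MA library 5, 3 without striatum SA library 3, 2 without whisker SA library 3), with 0 to 2 of them. The cause was not tested.

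Directions near 0 turned. With a common sum, log2 fold changes were -0.057 for Mtor and -0.065 for Rptor in striatum, 0.089 for Mtor and 0.034 for Tsc2 in whisker follicles, 1.33 for Akt2 between tissues in MA rats, and -0.15 for Mtor and -0.24 for Rheb in the interaction. With weighted libraries they were -0.025 (Mtor, striatum), 0.077 (Mtor, whisker follicle), 0.0065 (Akt2, tissues, MA), and -0.10 (Mtor) and -0.0020 (Rheb) in the interaction. With quantile normalization Rptor was -0.00079 in whisker follicles, and in the interaction Rptor was 0.017 and Rheb -0.072. With a common median, Rheb between tissues was -0.26 in MA and -0.31 in SA rats. Without a single library, ranges were -0.024 to 0.073 (Mtor), -0.015 to 0.048 (Rptor) and -0.17 to 0.014 (Tsc1) in striatum, -0.10 to 0.063 (Mtor) in whisker follicles, and -0.033 to 0.13 (Mtor) and -0.035 to 0.14 (Rheb) in the interaction.

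No paired analysis was possible because the column index of 0 to 5 is not tied to the rat numbers of the labels. With depth unknown, low values such as those of Tsc1 in whisker follicles carry an unknown counting error.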
